A study of Homo sapiens with 4 samples.

Results

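Each ATAC-seq library of this series carries a pair of peak lists, and these pairs are described here: narrow peaks from the nucleosome-free fragments, and broad peaks from fragments of all sizes. All peaks on chromosomes 1 to 22 were taken, 22918 narrow and 53685 broad, or 76603 of the 78744 peaks in the 8 lists. The 4 libraries came from OVSAHO, an established ovarian cancer cell line. In the 2 test libraries the cells stably expressed SMARCA2 and had SMARCA4 knocked down. The 2 control libraries came from wild-type cells, and all 4 from cells kept in 25 µM carboplatin, a platinum drug that crosslinks DNA, for 2 days. No untreated cells were analysed here. The labels do not give a promoter for SMARCA2, the knockdown reagent's sequence, a clone number or whether replicates were separate cultures. A p-value here therefore rests on libraries only. The spread between them may be technical, and over all 4 it also takes in any difference between the groups. The groups are not compared, because the question is what the choice of fragments does within a library.

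In ATAC-seq the Tn5 transposase cuts accessible DNA and tags the ends. A pair of cuts within a stretch free of nucleosomes releases a short fragment, and cuts on either side of a nucleosome release a longer one. Short fragments therefore mark the core of an open site, while all fragments together also carry the nucleosomes beside it. SMARCA2 and SMARCA4 are alternative ATPases of SWI/SNF complexes, which slide and evict nucleosomes. No gene annotation or genome of the files' build, hg19, was used here, so sites are named by position, and neither gene starts nor lineage markers were checked.

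Control 1 stood apart from the other 3 libraries before any peak was examined. Its nucleosome-free fragments numbered 15828837 of 31515662 fragments (50.2%), against 6146272 to 7531794 of 22432549 to 25452784 (27.4% to 29.6%) elsewhere, per the file headers. Its mean size over all fragments was 131 bp, against 178 to 182 bp. The mean size of nucleosome-free fragments was closer, at 62 bp in control 1 and 65 to 68 bp in the others. Values below are given per library, in the order test 1, test 2, control 1, control 2 unless named.

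Each library had more broad than narrow peaks. Test 1 had 3311 narrow and 8654 broad peaks, while test 2 had 4075 and 13708, control 1 had 10217 and 18280, and control 2 had 5315 and 13043. The geometric mean ratio of broad to narrow was 2.49, a log2 ratio of 1.32 ± 0.37 (SD, n = 4 libraries), and its sign was the same in 4 of 4. Per 1000000 fragments behind each list the order turned around. Narrow peaks then numbered 539, 592, 645 and 706 in test 1, test 2, control 1 and control 2, and broad peaks 386, 581, 580 and 512. The narrow rate was the higher in all 4 libraries, though in test 2 the rates lay close together. The log2 ratio per 1000000 fragments was -0.28 ± 0.23 (SD, n = 4).

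An exact two-sided sign-flip permutation test over the 4 libraries was used for the paired comparisons here. With 16 assignments its smallest p is 0.125, so no comparison can pass a threshold of 0.05. Each of the 11 comparisons tested had the same sign in 4 of 4 libraries and this smallest p, also after Benjamini-Hochberg adjustment. Some of these signs were favoured by how the lists were made. Length and background, for instance, had a higher lower limit in every broad list than in its narrow list. What can be said is the size of each difference against its spread between libraries.

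**Figure D1:**
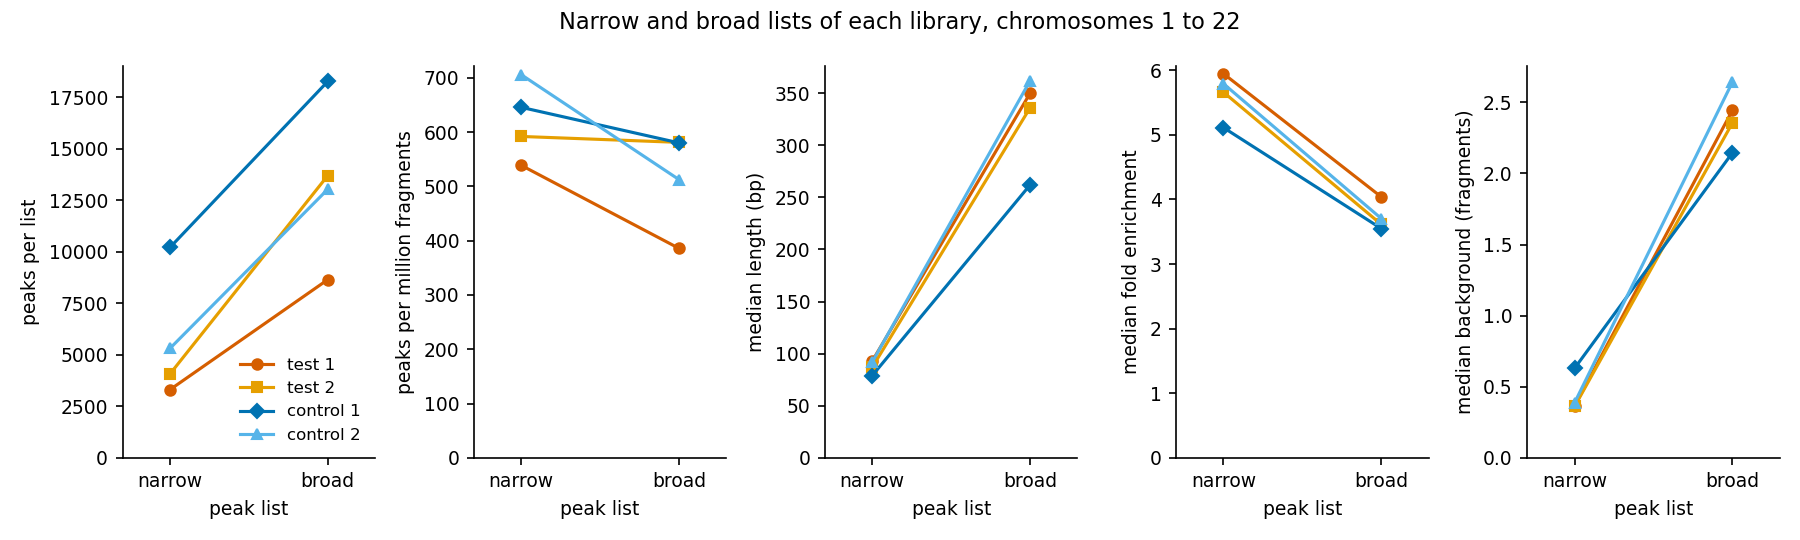
Values of the narrow and broad list of each library: peaks per list, peaks per 1000000 fragments, median length in bp, median fold enrichment and median background in fragments, each line joining the 2 lists of 1 library. Number, length and background rise from narrow to broad in all 4 libraries, while fold enrichment and peaks per 1000000 fragments fall.

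When only peaks whose −log10 q reached 5 were kept, the excess of broad peaks nearly vanished, with a log2 ratio of 0.08 ± 1.04 (SD, n = 4). Control 1 then had 951 broad and 2587 narrow peaks, so its order was reversed. The other libraries still had more broad peaks, with 2764 against 1494 in test 1, 1930 against 1585 in test 2 and 3289 against 2206 in control 2.

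Broad peaks were about 4 times as long as narrow ones. Median lengths of narrow and broad peaks were 93 and 350 bp (test 1), 87 and 336 bp (test 2), 79 and 262 bp (control 1), and 92 and 362 bp (control 2). The mean log2 ratio was 1.89 ± 0.11 (SD, n = 4), a ratio of 3.71. The upper quartile of narrow lengths was 132, 119, 100 and 129 bp in that order, so most were shorter than the DNA wrapped around a nucleosome. Only 1 to 3 narrow peaks per library exceeded 1000 bp, against 342 to 584 broad peaks (2.74% to 4.26% of a list). Narrow peaks covered 0.388 to 0.992 Mb per library and broad peaks 3.74 to 6.34 Mb, or 0.138% to 0.235% of the effective genome size of 2.7e+09 bp.

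The mean fragment size in the file headers is taken here as the caller's minimum length, since no peak was shorter. The shortest peaks of each list lay exactly on it, at 68, 65, 62 and 65 bp for narrow and 178, 179, 131 and 182 bp for broad peaks in test 1, test 2, control 1 and control 2. Between 2.60% and 4.05% of narrow peaks and between 0.439% and 0.673% of broad peaks had that length. The shorter peaks of control 1 in both lists thus went with a lower minimum.

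**Figure D2:**
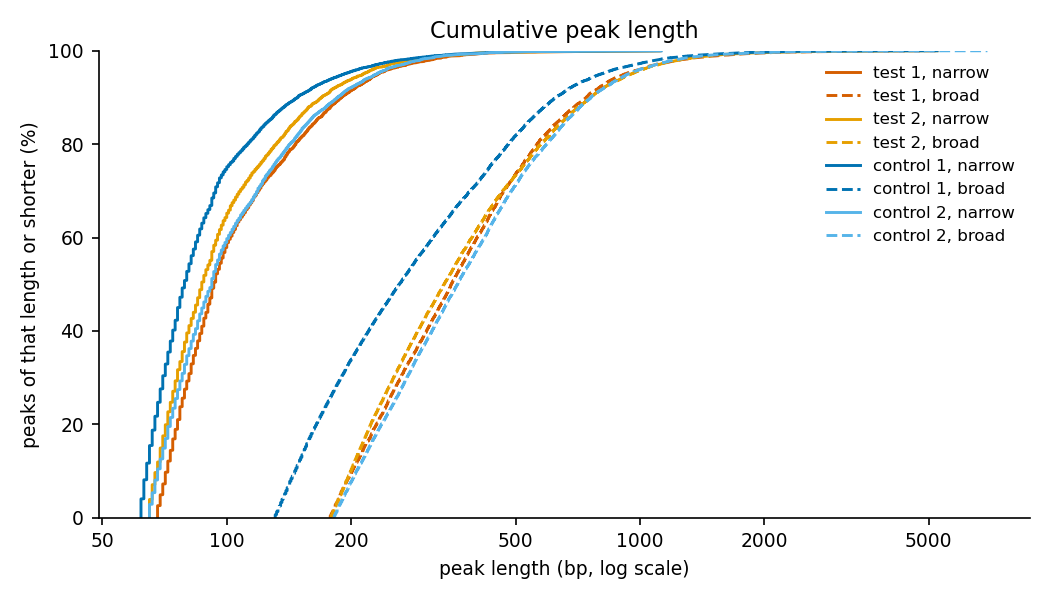
Cumulative share of peaks (%) against peak length (bp, log scale) for the narrow (solid) and broad (dashed) lists of the 4 libraries. The solid and dashed curves lie apart in every library, and control 1 is the leftmost of each kind, with medians of 79 and 262 bp.

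Narrow peaks stood higher over their surroundings than broad peaks. Fold enrichment is the authors' ratio of a peak's pileup, the number of fragments over it, to the background around it, after adding 1 to each. The deposited narrow pileups are whole numbers with a summit position, and the broad pileups are not whole, as a mean over the peak would be, so the scales differ in kind. Median narrow and broad fold enrichment was 5.95 and 4.04 (test 1), 5.66 and 3.61 (test 2), 5.11 and 3.55 (control 1), and 5.79 and 3.70 (control 2). The log2 ratio of broad to narrow was -0.59 ± 0.06 (SD, n = 4). With lists of equal length, which keep only the strongest broad peaks, it was -0.34. The upper tail parted further. The highest narrow value per library ran from 86.4 to 96.8 and the highest broad value from 23.01 to 31.4.

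Pileup went the opposite way. The median narrow pileup was 7 fragments in test 1, test 2 and control 2 and 8 in control 1. Median broad pileups were 13.7, 11.6, 10.5 and 13.3 fragments in test 1, test 2, control 1 and control 2. The mean log2 ratio was 0.75 ± 0.26 (SD, n = 4). Per 1000000 fragments it changed sign, to -0.85 ± 0.19, with narrow medians of 0.505 to 1.14 and broad medians of 0.332 to 0.609. A call needed few fragments. The lowest narrow pileup was 4 in 3 libraries and 5 in control 1, and the lowest broad pileup was 8 in all 4. Means over peaks, which a few very deep sites pull up, gave a log2 ratio of 0.17 ± 0.17, not of 1 sign in all 4 libraries, and medians of lists of equal length gave 1.20.

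Adding 1 to a peak's pileup, dividing by its fold enrichment and taking 1 away recovers its local background. Its lowest value in each list lay just above the genome-wide background that fragments, mean size and effective genome size imply. In the narrow lists the lowest value was 0.155, 0.168, 0.369 and 0.182 fragments, against implied values of 0.155, 0.166, 0.363 and 0.181. In the broad lists it was 1.48, 1.57, 1.53 and 1.72, against 1.48, 1.56, 1.53 and 1.72. More broad than narrow peaks lay within 2% of the implied value, 13.2% to 20.01% against 4.53% to 8.75%.

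The median peak sat on a background above that floor in every list. Narrow medians were 0.364, 0.362, 0.630 and 0.388 fragments, and broad medians 2.44, 2.35, 2.15 and 2.64, in test 1, test 2, control 1 and control 2. Relative to the implied genome-wide value the narrow medians were 2.35, 2.18, 1.73 and 2.14 times as high, and the broad medians 1.65, 1.51, 1.403 and 1.54 times. In each library the narrow median thus lay further above the implied value of its list. Broad values are read as means over the peak and narrow values as taken at the summit. The recovered backgrounds therefore differ in kind, and no difference in location is read from them. The log2 ratio of broad to narrow medians was 2.496 ± 0.49 (SD, n = 4), a ratio of 5.64 that was lowest in control 1, at 3.41. It was 1.46 as a mean over peaks and 1.31 with pileup divided by fold enrichment and nothing added.

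Most narrow peaks lay in a broad peak of their own library, and most broad peaks held no narrow peak. The overlap of 1 bp or more took in 2356 of 3311 narrow peaks for test 1 (71.2%, 95% exact interval 69.6 to 72.7), 2478 of 4075 for test 2 (60.8%, 59.3 to 62.3), 4362 of 10217 for control 1 (42.7%, 41.7 to 43.7) and 3567 of 5315 for control 2 (67.1%, 65.8 to 68.4). Broad peaks with a narrow peak numbered 2045 of 8654 (23.6%, 22.7 to 24.5), 2115 of 13708 (15.4%, 14.8 to 16.04), 3477 of 18280 (19.0%, 18.5 to 19.6) and 3109 of 13043 (23.8%, 23.1 to 24.6). Intervals here cover counting error only. Control 1 was far below the others in the first share and between them in the second. Of overlapping narrow peaks, 91.2%, 86.1%, 71.8% and 89.9% lay wholly inside the broad peak. With lists of equal length the mean share of broad peaks with a narrow peak rose from 20.5% to 42.5%, and at a −log10 q of 5 or more to 45.3%.

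Stronger peaks overlapped more often, with an exception at the top of the narrow lists. Among broad peaks the overlapping share climbed with every step of −log10 q. From the weakest bin (1.3 to 2) to the strongest (10 or more) it went from 1.36% to 79.9% (test 1), from 2.07% to 89.1% (test 2), from 7.56% to 96.0% (control 1) and from 2.03% to 86.3% (control 2). Narrow peaks climbed too, from 41.5% to 81.5% between the weakest bin and the bin of 5 to 10 in test 1, from 32.0% to 76.0% in test 2 and from 37.4% to 81.0% in control 2. In the bin of 10 or more these 3 libraries gained nothing further, at 77.5%, 76.0% and 77.4%, with intervals that overlap those of the bin before. Control 1 went on rising, from 61.3% to 79.0%.

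**Figure D3:**
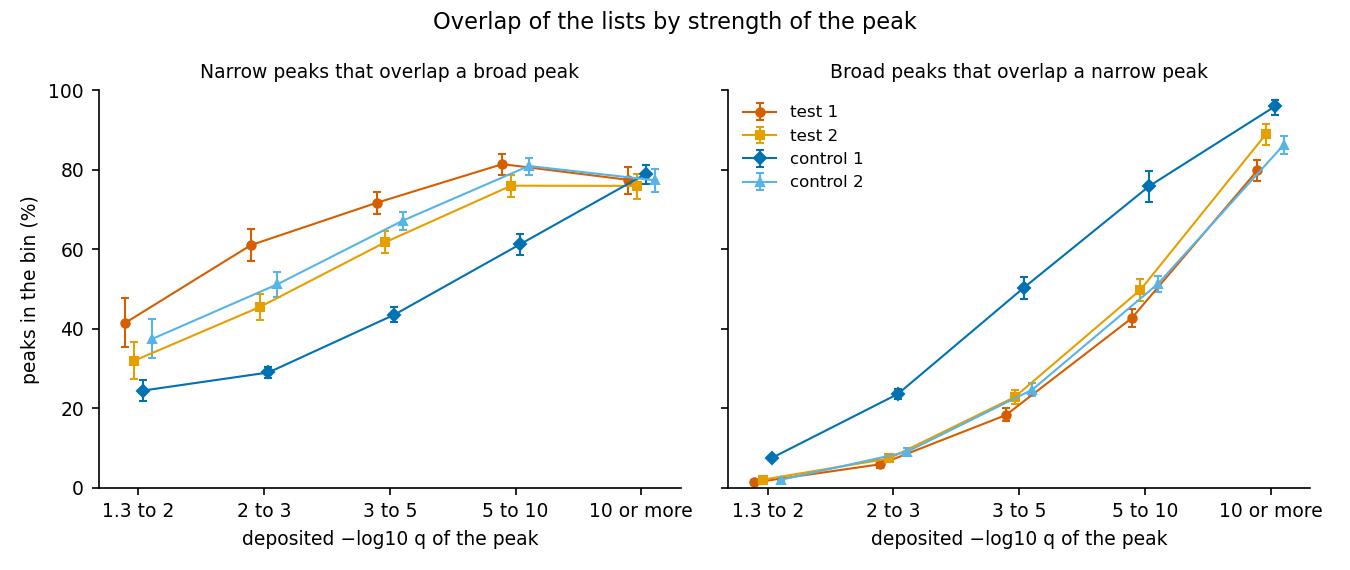
Share of narrow peaks that overlap a broad peak of the same library (left) and of broad peaks that overlap a narrow peak (right), in %, by the deposited −log10 q of the peak, for the 4 libraries; bars are 95% exact binomial intervals. Broad peaks rise to between 79.9% and 96.0%, while narrow peaks meet at 76.0% to 79.0% in the strongest bin.

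Strong narrow peaks with no broad peak were shorter than strong ones inside a broad peak. In 3 of 4 libraries most were present in every other library. At a −log10 q of 10 or more there were 143, 169, 240 and 182 such peaks in the libraries, tests first. Their median length was 94, 93, 86 and 94 bp. Of them 143, 167, 233 and 179 were shorter than the minimum length of a broad peak in that library. Strong narrow peaks inside a broad peak were longer, with medians of 139, 131, 129 and 139 bp, and 50.6% to 69.7% of them were shorter than that minimum. Shortness was not particular to strong peaks. Among weaker narrow peaks with no broad peak the medians were lower still, at 79, 76, 73 and 77 bp. Of these, 97.2% to 99.8% were shorter than the minimum. A narrow peak at the same place in all 3 other libraries was present for 124 of the 143 of test 1 (86.7%), 128 of 169 of test 2 (75.7%), 79 of 240 of control 1 (32.9%) and 131 of 182 of control 2 (71.98%). Strong narrow peaks inside a broad peak recurred in all 3 others in 71.6%, 71.8%, 55.7% and 63.0% of cases, lower in 3 libraries and higher in control 1. Weaker narrow peaks with no broad peak were the reverse, being absent from all 3 other libraries in 63.8%, 69.2%, 97.0% and 76.8% of cases. The 33 windows of 1 Mb with 5 or more merged narrow regions found in all 4 libraries are called dense windows. They held 44.1%, 39.6%, 35.4% and 36.8% of the strong peaks without a broad peak, against 8.13%, 4.27%, 2.65% and 4.28% of the weaker ones. Their definition raises the recurrence of peaks inside them. The strength threshold of this split was chosen after the values were seen. No list of problem regions was applied, and the part of mapping artefacts in these sites was not tested.

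The clearest of these sites lay on chromosome 2 at 149639298 to 149639412. Its narrow pileup was 346, 304, 147 and 464 fragments in test 1, test 2, control 1 and control 2, at a fold enrichment of 86.5, 81.8, 59.7 and 92.2, with no broad peak in any library. A second, on chromosome 12 at 41757447 to 41757516, was 69 to 70 bp long and had a fold enrichment of 61.6, 53.8, 36.4 and 69.4. On chromosome 16 at 14580876 to 14580985 the 4 libraries lay close together, between 36.7 and 42.2. The same held on chromosome 10 at 35310585 to 35310704, with 31.1 to 37.8. On chromosome 5 at 93905093 to 93905233 a narrow peak was called in 3 libraries and not in control 1, at 30.2 to 35.5. These 5 led 95 regions outside dense windows that had a narrow peak in at least 3 libraries and no broad peak in any, 48 of which had one in all 4. Narrow peaks at the 5 sites were 69 to 139 bp long, each shorter than the minimum length of a broad peak in its library. Nucleosome-free fragments are among all fragments, so the absence of a broad call there is not an absence of signal.

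Other sites had a narrow and a broad peak between nearly the same edges, though the broad pileup also counts the nucleosome-free fragments. Outside dense windows 130 merged regions had a narrow and a broad peak in all 4 libraries. The top site by fold enrichment lay on chromosome 13 at 110076475 to 110076678, where the narrow peak was 187 to 202 bp and the broad peak 188 to 200 bp long. Fold enrichment there was 69.8, 68.1, 51.2 and 70.3 in the narrow lists and 23.9, 23.7, 22.2 and 23.01 in the broad lists. Narrow summit pileups of 444, 386, 165 and 567 fragments stood beside broad pileups of 645.7, 563.1, 176.9 and 793.3. Control 1 was the lowest in both lists at this site.

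Other leading sites, the next 2 in rank among them, had control 1 on top. On chromosome 9 at 72653084 to 72653387 narrow fold enrichment was 39.0, 37.8, 47.8 and 37.3 and broad fold enrichment 17.8, 17.1, 23.3 and 17.5. On chromosome 10 at 98561325 to 98561547 it was 37.2, 38.2, 46.4 and 40.6 in narrow lists and 16.6, 14.3, 19.2 and 14.1 in broad lists. The narrow peak covered only part of the broad peak on chromosome 9 at 67320338 to 67320952, being 395 to 422 bp against 603 to 609 bp. A site of chromosome 5 (71146740 to 71146942) and one of chromosome 7 (100550680 to 100551213) came later, with narrow fold enrichment of 27.9 to 34.9 and 27.5 to 31.8. Over the 8 leading sites, narrow peaks were 176 to 422 bp long, well above the list medians of 79 to 93 bp. Their narrow pileups of 43 to 567 fragments also lay far above list medians of 7 to 8. Broad pileups there were 61.0 to 793.3, against list medians of 10.5 to 13.7. No list of problem regions was applied to these sites or to those of dense windows below. The part of mapping artefacts in all of them was not tested.

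Inside dense windows the gap between the lists was wider at the top site. On chromosome 17 at 22020563 to 22020895 narrow fold enrichment was 88.2, 91.9, 62.6 and 96.8 and broad fold enrichment 18.2, 17.5, 21.98 and 17.03. The narrow peak was 120 to 135 bp long and the broad peak 204 to 333 bp. On chromosome 9 at 66970978 to 66971552 broad pileups reached 1870.1 to 2327.4 fragments, with narrow pileups of 358 to 674. Dense windows held 15.6%, 14.5%, 10.5% and 11.5% of narrow peaks and 5.07%, 3.97%, 4.31% and 3.67% of broad peaks in test 1, test 2, control 1 and control 2. Because recurrent narrow regions define these windows, the higher narrow share is a description only.

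Broad peaks without any narrow peak led at a lower fold enrichment than sites with both peaks, even when all libraries called them. Outside dense windows 199 merged regions had a broad peak in all 4 libraries and a narrow peak in none. Chromosome 22 carried the leading region, 18688275 to 18688775, where fold enrichment was 7.12, 5.33, 6.56 and 6.83 and pileup 13.3 to 18.01 fragments. On chromosome 17 at 630854 to 631241 fold enrichment was 6.12, 5.14, 5.37 and 6.09. A region of chromosome 1, from 236876909 to 236878296, and one of chromosome 9, from 140739558 to 140740830, held peaks of 951 to 1369 bp and were highest in control 1, at 8.40 and 6.84. The 5 leading regions spanned 4.40 to 8.40 in broad fold enrichment, above the broad list medians of 3.55 to 4.04. The 8 leading sites with both peaks outside dense windows spanned 7.78 to 23.9. Peak shape was not measured, and the absence of a narrow peak itself favours lower signal.

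Narrow peaks inside a broad peak were stronger than those outside. Median fold enrichment inside and outside was 6.21 and 5.32 (test 1), 5.99 and 5.07 (test 2), 5.43 and 4.97 (control 1), and 6.05 and 5.08 (control 2). The log2 ratio was 0.21 ± 0.06 (SD, n = 4), a ratio of 1.16. Inside peaks were also longer, with medians of 102, 98, 94 and 103 bp against 80, 77, 74 and 78 bp. Their background was higher too, at 0.395, 0.434, 0.879 and 0.443 fragments against 0.269, 0.276, 0.558 and 0.293. Nucleosome-free fragments are among all fragments, so the lists are not independent. Among peaks with a −log10 q of 5 or more the log2 ratio was 0.09.

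Outside peaks were not near misses of a broad edge. The median distance from their summit to the nearest broad peak was 49.8, 37.9, 24.2 and 36.5 kb in test 1, test 2, control 1 and control 2. At most 4.82% lay within 1 kb. In the 3 libraries other than control 1, 24.2% to 38.7% of outside peaks fell in a broad peak of another library, against 5.43% in control 1.

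Broad peaks that held a narrow peak were longer than those that did not. Median lengths were 458 and 324 bp (test 1), 438 and 319 bp (test 2), 366 and 245 bp (control 1), and 462 and 334 bp (control 2), a log2 ratio of 0.50 ± 0.06 (SD, n = 4). A longer peak has more room for an overlap, and the share with a narrow peak rose with length. It was 7.86% to 12.6% up to 250 bp, 20.8% to 35.0% above 500 and up to 1000 bp, and 81.8% to 94.5% over 2000 bp. Pileup differed as well. Broad peaks with a narrow peak had medians of 20.9, 19.2, 14.5 and 20.4 fragments, against 12.2, 10.98, 10 and 11.98 without. With a −log10 q of 5 or more the log2 length ratio was 0.22, and with lists of equal length 0.31.

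Few broad peaks held several narrow peaks. Among those that held any, 9.63%, 10.8%, 16.6% and 9.46% held 2 or more. Those with 3 or more numbered 58, 73, 167 and 79, with median lengths of 1713, 1584, 1407 and 1757 bp. Neighbouring summits inside a broad peak were 414, 429, 365 and 396 bp apart at the median. No pair was closer than 109 bp. The longest broad peak outside dense windows lay at the same place in all 4 libraries, on chromosome 7 near 56438258 to 56442370. It was 4111 to 4194 bp long and held 5, 7, 6 and 5 narrow peaks at a broad fold enrichment of 2.41 to 2.69. Inside dense windows the longest lay on chromosome 16 near 46403448 to 46408710, with 3, 3, 11 and 6 narrow peaks. The fullest broad peak of control 2 held 10 narrow peaks, on chromosome 1 at 564508 to 569969, a stretch known as a nuclear copy of mitochondrial DNA, and had a pileup of 1253.8 fragments over a background of 479.

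Summits of narrow peaks did not sit at the middle of the broad peak. Their median distance from its centre was 104, 116, 124 and 109 bp, or 46.0%, 51.1%, 63.4% and 47.8% of the way from centre to edge. Summits in the outer 20% of the broad peak or beyond its edge made up 16.2%, 21.1%, 31.8% and 16.4% in test 1, test 2, control 1 and control 2. An even spread inside the peak would put 20% in its outer part alone. Shares of test 1 and control 2 lay below that even with summits beyond the edge counted. Most overlapping narrow peaks lay wholly inside, which itself limits how near the edge a summit can lie. Avoidance of edges therefore cannot be read from these shares. In control 1 only 71.8% of overlapping narrow peaks lay wholly inside, so its higher share cannot be read as a position within the peak. Sides were balanced, with 50.7% to 53.0% of summits on the side of the lower coordinate. Broad peaks with 1 narrow peak gave the same order, with 12.2%, 17.6%, 29.6% and 12.9% in the outer part or beyond the edge.

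Where a narrow peak overlapped a broad one, the narrow fold enrichment was the higher in most pairs. Per library this held for 1897 of 2356 pairs of test 1 (80.5%), 2177 of 2478 of test 2 (87.9%), 4173 of 4362 of control 1 (95.7%) and 3114 of 3567 of control 2 (87.3%). The median ratio was 1.3002, 1.44, 1.52 and 1.41, a log2 ratio of 0.50 ± 0.10 (SD, n = 4). A summit against a mean over the peak favours the narrow value, and the size of that part was not tested. In broad peaks over 2000 bp the ratio was larger, 1.75 to 1.96. Across pairs of a library the ranks of the 2 fold enrichments were loosely related, with Spearman's rho of 0.27, 0.34, 0.51 and 0.29, while recovered backgrounds were closely related, at 0.96 to 0.99. Pairs share fragments and some share a broad peak, so these are descriptions.

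Nucleosome-free fragments made up more of the pileup at overlapping peaks than of the background there. Narrow summit pileup was 36.3%, 39.2%, 60.8% and 37.5% of the broad pileup at the median pair in test 1, test 2, control 1 and control 2. For the recovered backgrounds of the same pairs the ratio was 10.8%, 11.1%, 24.6% and 11.0%. The first ratio was thus 3.34, 3.52, 2.47 and 3.42 times the second, a log2 ratio of 1.66 ± 0.24 (SD, n = 4), and 1.78 without control 1. Both lists had to call these sites, and the narrow value is taken at the summit, so part of the excess is fixed by the choice and no test was run. Background is coverage, to which a short fragment adds fewer bases, so it lies below the share of fragments (27.4% to 50.2%). The pileup ratio fell with the length of the broad peak. Up to 250 bp it was 42.9%, 44.4%, 63.5% and 45.3%, and over 2000 bp it was 23.1%, 25.7%, 47.5% and 25.1%. Within dense windows it was 29.0%, 31.7%, 53.9% and 30.1%, against 37.1%, 40.4%, 61.9% and 38.2% outside.

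**Figure D4:**
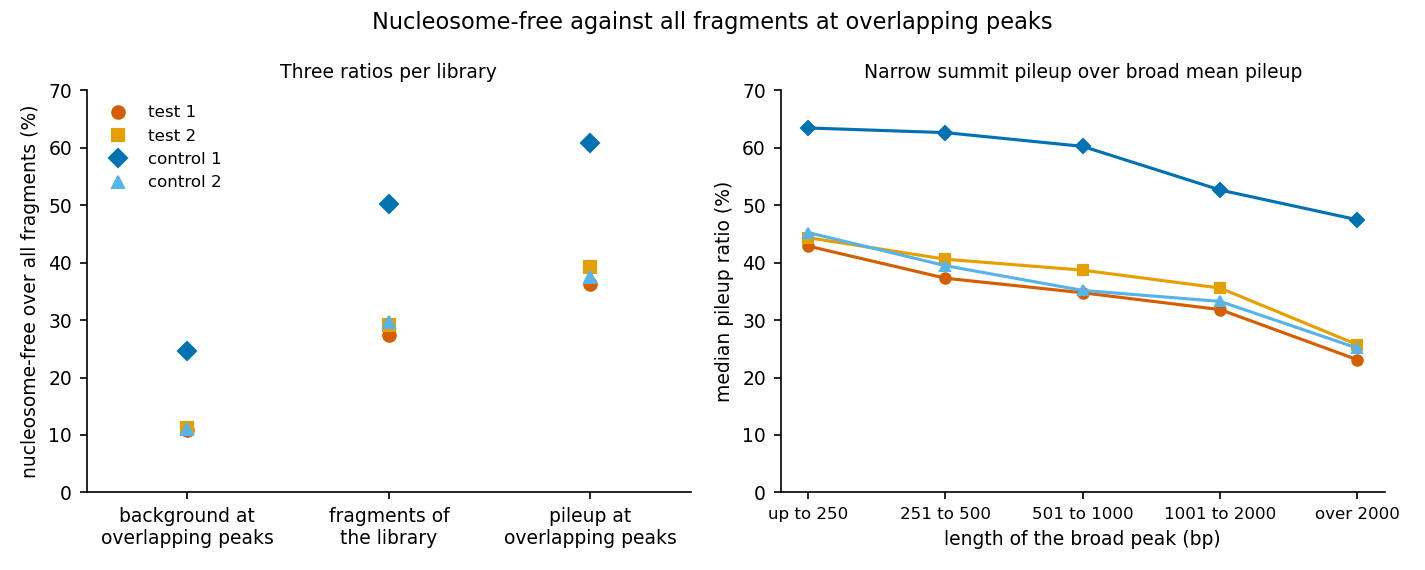
Left: nucleosome-free over all fragments (%) for the recovered background at overlapping peaks, the fragments of the library and the pileup at overlapping peaks, with 1 point per library. Right: median ratio of narrow summit pileup to broad mean pileup (%) by broad peak length in bp; it falls from 42.9% to 63.5% in the shortest class to 23.1% to 47.5% in the longest, and control 1 is the highest throughout.

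Peaks called in both lists met a peak of at least 1 other library more often, though among narrow peaks this depended on strength and on the number of libraries asked for. Of broad peaks with a narrow peak, 97.5%, 95.9%, 46.1% and 88.7% met a broad peak of at least 1 other library in test 1, test 2, control 1 and control 2. Of those without, 75.1%, 57.6%, 19.3% and 53.4% did. The difference was 30.7 ± 7.4 percentage points (SD, n = 4), and 17.3 with lists of equal length or 19.97 at a −log10 q of 5 or more. Narrow peaks inside a broad peak met a narrow peak of another library in 75.9%, 77.1%, 27.8% and 60.1% of cases, against 45.3%, 38.1%, 5.70% and 30.8% outside, a difference of 30.2 ± 6.9 points (SD, n = 4). Peaks in both lists were also stronger, with median −log10 q of 4.15 to 5.03 against 2.88 to 3.52 for narrow and 2.69 to 7.50 against 1.77 to 2.81 for broad peaks. Among narrow peaks with a −log10 q of 10 or more, those found in no other library made up 2.80%, 0.592%, 31.3% and 3.85% outside a broad peak and 0.609%, 0.561%, 14.4% and 2.56% inside. At that strength the gap was thus small in test 1, test 2 and control 2, and remained in control 1. At a −log10 q of 5 or more the difference was 27.9 ± 16.8 points (SD, n = 4). Recurrence in all 3 other libraries did not separate the classes in test 1, at 20.2% inside and 19.4% outside, and was 20.2% and 9.96% in test 2, 12.6% and 1.81% in control 1, and 13.8% and 9.32% in control 2.

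Between the list types the gap was smaller and less stable. A peak of another library was met by 67.1%, 61.8%, 15.1% and 50.4% of narrow peaks and by 80.4%, 63.5%, 24.4% and 61.8% of broad peaks. The broad excess of 8.9 ± 5.1 points (SD, n = 4) was smallest in test 2, at 1.68. Without control 1 it was 7.1 ± 9.6 points (SD, n = 3), with an exact sign-flip p of 0.5, so its sign no longer held in every library. With lists of equal length it was 16 ± 13 points (SD, n = 4) and an exact p of 0.25, and there too the sign did not hold in all 4. Longer peaks meet others more easily, and that part was not tested.

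Merging all 8 lists gave 44082 regions. Of these 28325 (64.3%) held broad peaks only, 7938 (18.0%) narrow peaks only and 7819 (17.7%) both. A broad peak in a single library with no narrow peak accounted for 22688 regions, and a narrow peak in a single library with no broad peak for 7557. A narrow and a broad peak in all 4 libraries marked 283 regions, of which 153 lay in dense windows.

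The lists also spread differently over the chromosomes, though the pattern depended on dense windows. Chromosomes 2, 4, 10, 17 and 20 had a larger share of the narrow than of the broad list in all 4 libraries, and chromosomes 3, 5, 6, 7, 13 and 15 a smaller share. Outside dense windows the narrow share was the larger in all 4 on chromosomes 7, 12, 19, 20 and 21, and the smaller on 3, 4, 5, 13, 15 and 18. Only 20 on the narrow side and 3, 5, 13 and 15 on the broad side were common to both counts. Chromosomes 4 and 7 changed sides. No test was run per chromosome.

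Chromosome 5 held 6.83%, 7.53%, 8.97% and 6.38% of narrow peaks and 7.996%, 10.7%, 10.5% and 7.56% of broad peaks. Chromosome 20 held 4.14%, 4.52%, 6.75% and 4.59% of narrow and 3.27%, 3.76%, 5.92% and 3.89% of broad peaks. On gene-rich chromosome 19, outside dense windows, the narrow share was 9.62%, 7.84%, 3.49% and 7.46% and the broad share 7.19%, 5.58%, 3.45% and 5.51%. The gap there was about 2 points in 3 libraries and nearly absent in control 1.

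Chromosome 20 had the highest background of both lists in all 4 libraries outside dense windows, at 1.91, 1.80, 1.89 and 1.95 times the list median in narrow peaks and 1.82, 1.86, 1.93 and 2.03 times in broad peaks. Chromosome 19 came next in both lists of test 1, test 2 and control 2, at 1.56 to 1.57 times in narrow peaks of the last 2 and 1.46 to 1.58 times in broad peaks of the 3. In control 1 chromosome 17 lay between them, at 1.76 and 1.57 times. Over all peaks chromosome 4 differed between the lists. Its narrow background was 2.27, 3.25, 2.29 and 1.34 times the list median, against 0.757, 0.869, 1.13 and 0.721 in broad peaks. Outside dense windows the narrow values were 0.718, 0.708, 1.04 and 0.759 and the broad values 0.667, 0.704, 0.767 and 0.668. The gap was much smaller there, but narrow stayed the higher in all 4 libraries, which held for no other chromosome. DNA copy number was not measured in these files.

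**Figure D5:**
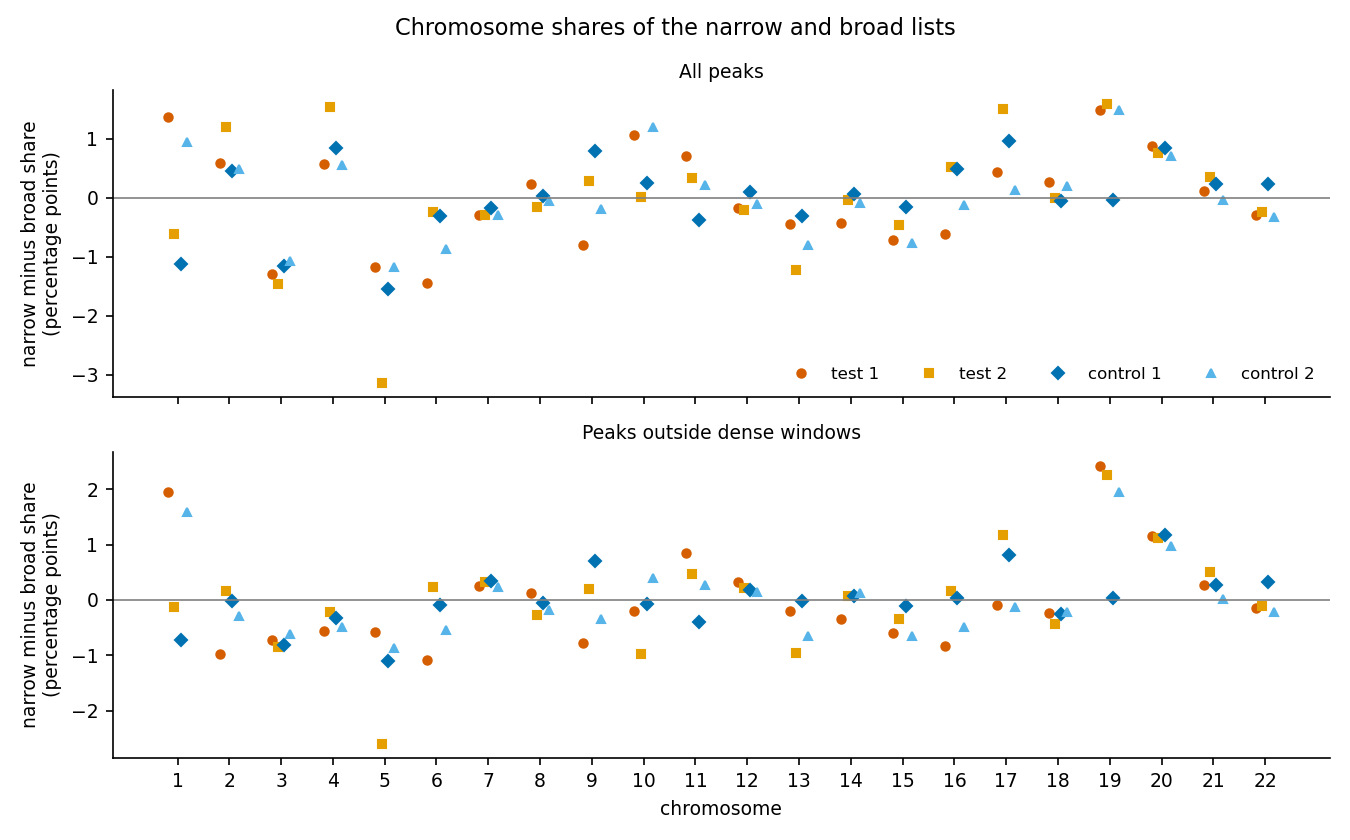
Share of the narrow list minus share of the broad list (percentage points) on chromosomes 1 to 22, with 1 point per library, for all peaks (top) and outside dense windows (bottom). Chromosome 20 lies above 0 in both panels and chromosome 5 below 0, while chromosome 4 changes sides.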

How the data were processed

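ATAC-seq peak lists of 4 OVSAHO libraries were used, a narrow and a broad list each, with groups and replicate numbers from the labels. Per the file headers, MACS2 2.2.7.1 called each library separately on paired-end fragments with no control sample, all duplicates kept, a q threshold of 0.05, an effective genome size of 2.7e+09 and a regional background over 10000 bp. Alignments were named as shifted for the transposase, and those of the narrow lists as nucleosome-free, per the file headers. The submitters' processing notes name hg19, cutadapt 3.2, Bowtie2 2.3.5.1, deepTools 3.5.1 and Picard without a role. The deposited pileup is a coverage signal, the deposited fold enrichment a ratio to local background, and the deposited p and q are on the −log10 scale. None is scaled between libraries, and kept duplicates add to pileup.

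Peaks on chromosomes 1 to 22 were paired within a library by an overlap of 1 bp. Medians were compared as log2 ratios with an exact two-sided sign-flip permutation test over libraries, and shares have 95% exact (Clopper-Pearson) intervals. Depth is given as fragments per list; their number limits how weak a site can be called. Sites were named by rank of the smallest within-list percentile of fold enrichment: 8 with both peaks in all 4 libraries, 3 of that kind in dense windows, 5 narrow without broad and 5 broad without narrow, plus the longest and fullest broad peaks; a few are counted but not located. Members, lists and the dense-window rule were chosen with earlier results of these data known. Recurrence of narrow peaks inside and outside broad peaks and the pileup ratio were added after the data were seen. Planned promoter and marker checks were not run, because an hg19 annotation was not used here. Alternatives covered strength, list length, overlap, dense windows, contigs, fragments, pseudocount, means, each library left out and the block. Scripts were tested on simulated data. Computation used scipy 1.17.1, pandas 2.3.3 and numpy 2.4.6 under Python 3.11.15, and figures matplotlib 3.10.9.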

Additional observations from a re-analysis of the deposited data

Results flagged for a closer look

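In 39 sets of 4 library values, 8 had an end value whose gap to its neighbour was too large a part of the whole range by Dixon's criterion at 95%, and control 1 was that library each time. Chance flags about 1 set in 20, and several of these sets share their data. The median narrow pileup was 8 fragments in control 1 and 7 in the other 3 libraries. Narrow pileups are whole numbers, and with 3 tied values any difference is flagged, so this flag carries no weight. The median narrow background of control 1 was 0.630 fragments, against 0.362 to 0.388. Its log2 ratio of broad to narrow background was thus 1.77, against 2.70 to 2.77. Broad peaks without a narrow peak had a median length of 245 bp in control 1, against 319 to 334 bp. Broad peaks with a narrow peak recurred in another library in 46.1% of cases, against 88.7% to 97.5%. At overlapping peaks its narrow to broad background ratio was 0.246, against 0.108 to 0.111, and its pileup ratio 0.608, against 0.363 to 0.392. The log2 of the pileup ratio over the background ratio was 1.31, against 1.74 to 1.82.

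Outside chromosomes 1 to 22 there were 457 narrow and 988 broad peaks on chromosome X over the 4 libraries, 91 to 143 narrow and 204 to 310 broad per library. Chromosome Y had 438 narrow and 258 broad peaks, 70 to 176 narrow and 51 to 93 broad per library, so narrow peaks outnumbered broad there in total. These peaks entered no comparison other than the alternative with all contigs. OVSAHO is an ovarian cancer line, so peaks on chromosome Y are not read here as open sites of its cells. The part of mapping artefacts in those peaks was not tested.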

How the results depend on the processing

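Over 15 results and 148 alternative values, 135 kept their direction and side of the threshold, or moved by less than the spread between libraries. Under the paired test the side of the threshold was fixed in advance, so only the direction of the mean could change. The 135 include peak numbers at a −log10 q of 5 or more, at a log2 ratio of 0.08 ± 1.04 (SD, n = 4). Dividing by fragments reversed the log2 ratio of peak numbers to -0.28 and that of median pileups to -0.85. The narrow and broad lists of a library form a pair. With no replicate block, exact two-sided tests over 70 assignments reach p = 0.0286, and 7 results then passed at log2 ratios of 1.89 (length), -0.59 (fold enrichment), 0.75 (pileup), 2.496 (background), 0.21 (narrow inside over outside), 0.50 (broad length with over without) and 0.46 (fold enrichment at pairs), since pairing 4 libraries cannot pass. The share of broad peaks with a narrow peak moved to 45.3% at the stricter threshold and 42.5% with equal lists. The summit distance moved to 134.9 bp at the stricter threshold and 98.7 bp without dense windows; the cause was not tested. Leaving out each library reversed none of the 15 results, with 3 libraries reaching p = 0.25 at best in the exact test. Few fragments per call, 4 to 8 at the lowest, limit all lists.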
